A study of Danio rerio with 12 samples.

Results

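The 10 genes cry-dash, ddb2, lonrf1, lonrf4, fech, blvra, gpr3, abhd4, wdr76 and zmat1 are described here across 12 arrays of whole zebrafish larvae. They were selected on these measured values: their level differed between the arrays labelled replicate 1 and those labelled replicate 2 in the same way as that of light-regulated clock genes, or, for zmat1, in the opposite way. They are 10 of the 18963 genes with a probe set that carries 1 gene symbol. Each of them had 1 such probe set. A further probe set that carried lonrf1 beside another symbol was not used.

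Zebrafish cells sense light directly in most tissues, and light switches on a set of genes beside resetting the clock. Among the genes known to respond are photolyases, which use light energy to reverse ultraviolet damage in DNA, and genes of nucleotide excision repair, which cuts such damage out. The 10 genes fall into a DNA repair pair (cry-dash, ddb2), a pair with LON and RING domains (lonrf1, lonrf4), a pair of heme metabolism (fech, blvra) and 4 single genes (gpr3, abhd4, wdr76, zmat1).

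The larvae were of the AB wild-type line, and all groups had their chorion removed with Proteinase K and were injected with a KCl solution that held TRITC-dextran as tracer. One treatment group received 5-HT (serotonin) at the zygote stage, the other received reserpine, which blocks the vesicular monoamine transporter, and controls received the tracer solution with DMSO and ethanol. Each group was collected at 2 or 4 days post fertilisation (dpf), which gave 6 groups of 2 biological replicates, and each array held RNA of a pool of 30 to 40 larvae. The labels give neither the lighting, the hour of collection nor the dose, so the word light-regulated rests on what is known of other genes and not on a condition of these samples. In RNA of whole larvae, fewer cells of a type and less RNA per cell cannot be told apart.

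The deposited values are log2 expression values with array medians of 6.44 to 6.56. Over all features, the correlation of a group's 2 arrays ranged from 0.984 to 0.992, and that of arrays of different ages from 0.960 to 0.979. Markers of the expected tissues were present on every array, with mean levels of 11.82 to 12.41 for 5 skeletal muscle markers and 11.12 to 11.57 for 4 neuron markers. The 4 dpf reserpine replicate 2, which 1 label calls a 2-day sample, was used as 4 dpf, as its other labels say. Its mean of 4 exocrine pancreas markers was 12.56, near the 12.99 of 4 dpf reserpine replicate 1. The 2 dpf reserpine arrays had 7.2 and 8.0, so its level was that of a 4 dpf array. With 2 arrays in a group, their number limits the precision.

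The replicate difference came first, and since it chose the genes it is given as a description with no test. In every one of the 6 groups replicate 1 lay above replicate 2 for 9 of the 10 genes and below it for zmat1. For all tested features, the share with replicate 1 higher in all 6 groups was 5.66%, and with replicate 2 higher 4.81%. The 6 replicate 1 arrays did not overlap the 6 replicate 2 arrays for 9 of the 10 genes, against 1.03% of tested features, and the exception was blvra. The genes ranked between 2 (lonrf1) and 55 (zmat1) of 18385 tested genes by the size of their mean difference.

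**Figure D1:**
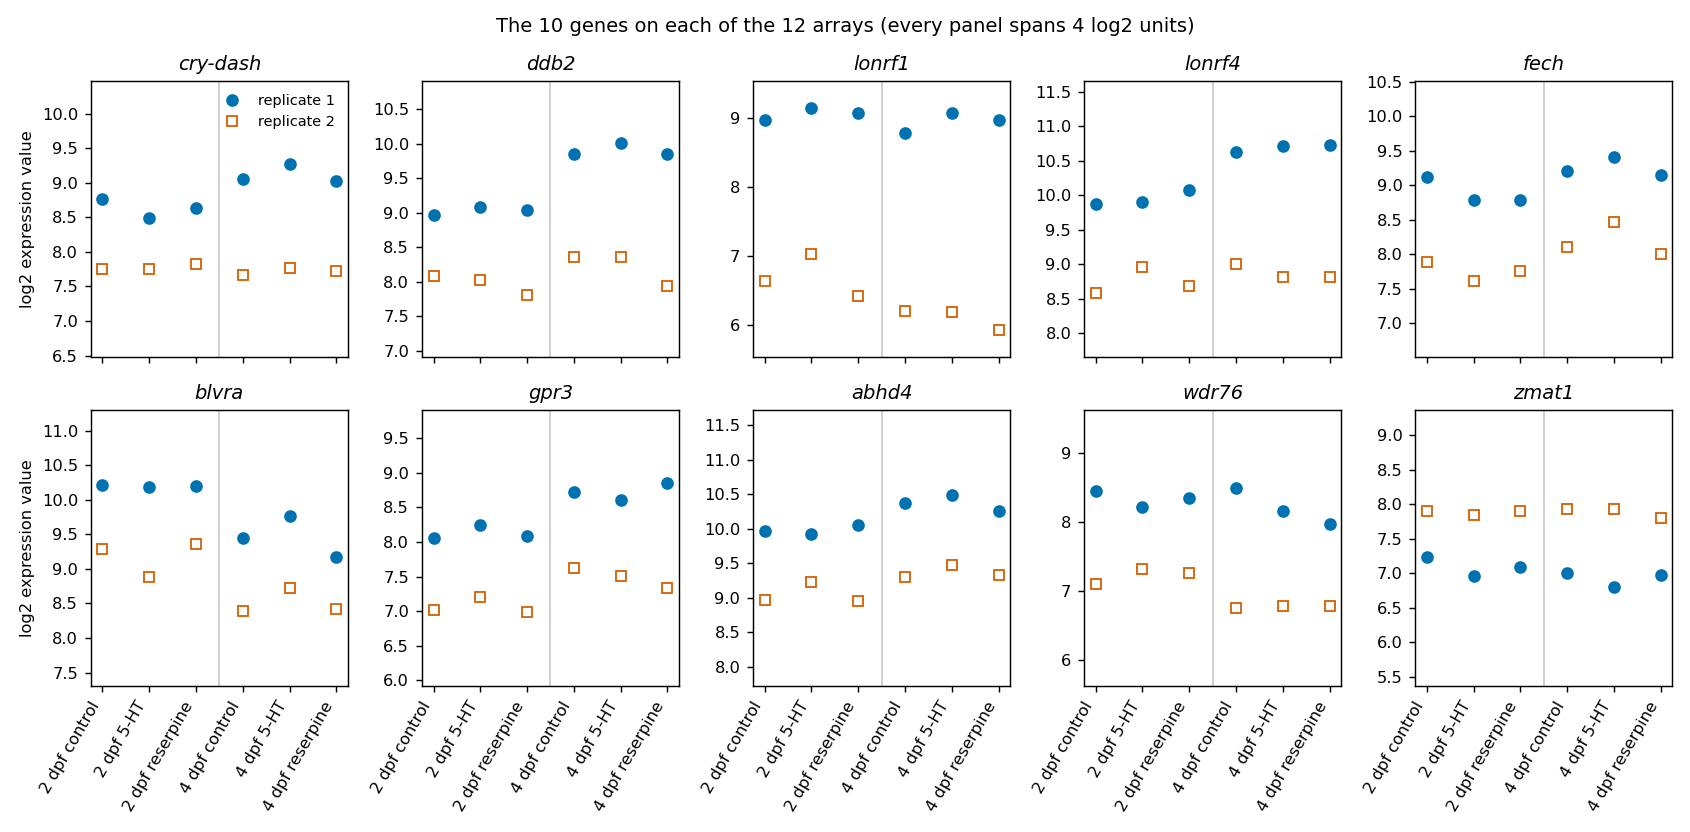
Log2 expression value (y axis) of each of the 10 genes in the 6 groups (x axis), with 1 point per array: filled circles are replicate 1 and open squares replicate 2, and every panel spans the same number of log2 units. Replicate 1 lies above replicate 2 in every group for 9 genes and below it for zmat1, and the gap is widest for lonrf1, at 2.11 to 3.05.

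cry-dash encodes a DASH-type cryptochrome, a photolyase relative that repairs ultraviolet lesions in single-stranded DNA. At 2 dpf its replicate 1 and 2 arrays read 8.76 and 7.76 in controls, 8.49 and 7.76 after 5-HT and 8.63 and 7.82 after reserpine. At 4 dpf they read 9.05 and 7.67, 9.28 and 7.77, and 9.02 and 7.72 in the same order. The replicate 2 arrays thus stayed between 7.67 and 7.82 at both ages, while the replicate 1 arrays lay between 8.49 and 9.28.

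ddb2 encodes the damage sensor that binds ultraviolet lesions and recruits the excision repair machinery. Its replicate 1 and 2 arrays read 8.97 and 8.08 in 2 dpf controls, 9.08 and 8.03 after 5-HT and 9.04 and 7.80 after reserpine. At 4 dpf they read 9.85 and 8.36 in controls, 10.01 and 8.35 after 5-HT and 9.85 and 7.93 after reserpine. The 4 dpf replicate 1 arrays were the highest for ddb2, and all replicate 2 arrays were lower than any replicate 1 array.

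lonrf1 and lonrf4 encode proteins with a LON substrate-binding domain and a RING finger, the fold of many ubiquitin ligases. lonrf1 differed most of the 10 genes. Its arrays read 8.96 and 6.64 in 2 dpf controls, 9.14 and 7.03 after 5-HT and 9.06 and 6.41 after reserpine, then 8.78 and 6.20, 9.07 and 6.19, and 8.97 and 5.92 at 4 dpf. The mean difference over 6 groups was 2.60 ± 0.35 (SD over groups, n = 6), 6.06-fold. The replicate 1 values of lonrf1 lay within 8.78 to 9.14, so the spread between groups was larger on the replicate 2 arrays, at 5.92 to 7.03.

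lonrf4 read 9.88 and 8.58 in 2 dpf controls, 9.91 and 8.96 after 5-HT and 10.07 and 8.68 after reserpine. At 4 dpf it read 10.63 and 9.01, 10.72 and 8.82, and 10.73 and 8.81. The mean difference was 1.51 ± 0.38 (SD, n = 6). Unlike in lonrf1, the replicate 1 values parted by age, from 9.88 to 10.07 at 2 dpf and from 10.63 to 10.73 at 4 dpf.

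fech encodes ferrochelatase, which inserts iron into protoporphyrin in the last step of heme synthesis. It read 9.12 and 7.89 in 2 dpf controls, 8.78 and 7.61 after 5-HT and 8.79 and 7.76 after reserpine, and 9.20 and 8.11, 9.41 and 8.47, and 9.15 and 8.01 at 4 dpf. Its difference varied least between groups, from 0.94 to 1.23, with an SD of 0.10 (n = 6). blvra encodes biliverdin reductase A, which turns the heme breakdown product biliverdin into bilirubin. It read 10.22 and 9.29 in 2 dpf controls, 10.18 and 8.88 after 5-HT and 10.20 and 9.36 after reserpine, and 9.45 and 8.39, 9.77 and 8.72, and 9.18 and 8.42 at 4 dpf. Within each group replicate 1 was higher for blvra, but the 2 dpf replicate 2 arrays reached 9.36, above the lowest 4 dpf replicate 1 array at 9.18.

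gpr3 encodes an orphan receptor that signals through Gs and raises cyclic AMP without a known ligand. Its replicate 1 arrays ranged from 8.06 to 8.85, with a median of 8.43, and its replicate 2 arrays from 6.98 to 7.63, with a median of 7.28. Together with lonrf1 it was 1 of the 2 genes that differed at least 2-fold in every group, against 0.0292% of tested features with replicate 1 that much higher. abhd4, whose mouse protein hydrolyses N-acyl phospholipids, ranged from 9.93 to 10.49 on replicate 1 and from 8.96 to 9.48 on replicate 2 arrays. Its mean difference of 0.97 ± 0.14 (SD, n = 6) was close to 2-fold.

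wdr76 encodes a nuclear WD-repeat protein whose yeast relative binds damaged DNA. It ranged from 7.97 to 8.49 on replicate 1 and from 6.75 to 7.31 on replicate 2 arrays, a mean difference of 1.27 ± 0.29 (SD, n = 6). zmat1 encodes a zinc finger protein of the matrin type and was the gene with the opposite sign. It ranged from 6.81 to 7.24 on replicate 1 and from 7.80 to 7.93 on replicate 2 arrays. Its difference was -0.87 ± 0.15 (SD, n = 6), and its replicate 2 arrays varied less than its replicate 1 arrays.

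**Figure D2:**
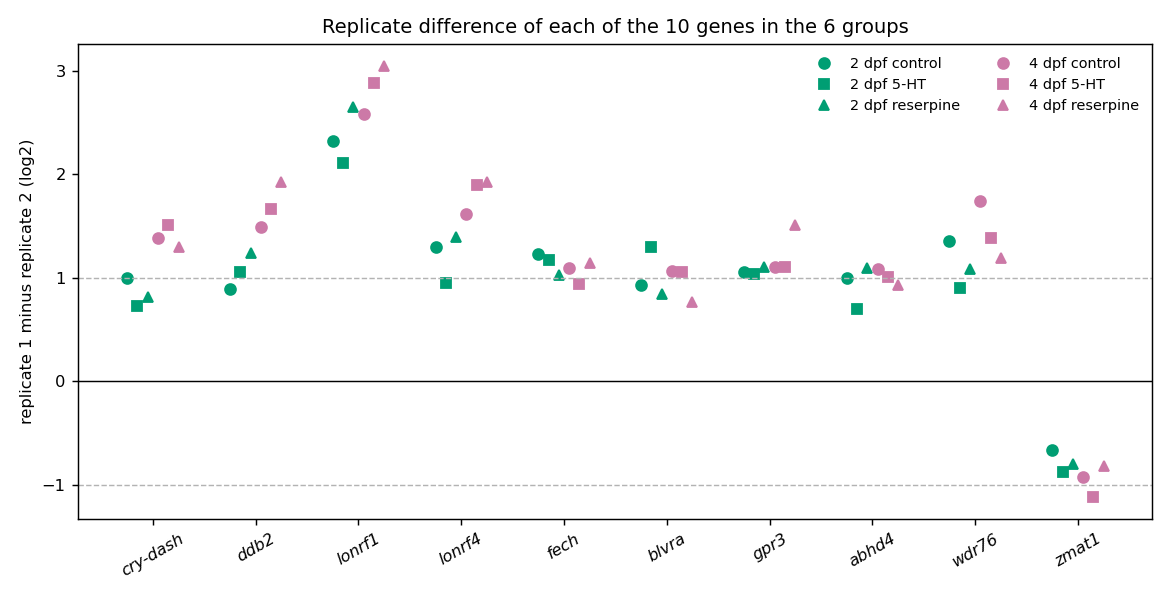
Replicate 1 minus replicate 2 on the log2 scale (y axis) for each of the 10 genes (x axis), with 1 point per group. Green points are 2 dpf and pink points 4 dpf groups, circles, squares and triangles stand for control, 5-HT and reserpine, and dashed lines mark a 2-fold difference. All pink points of cry-dash, ddb2 and lonrf4 lie above their green points.

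Counted by group, the number of the 10 genes that differed at least 2-fold was 7 in 2 dpf control, 5 in 2 dpf 5-HT, 7 in 2 dpf reserpine, 9 in 4 dpf control, 9 in 4 dpf 5-HT and 7 in 4 dpf reserpine. The share of all tested features past the same fold was 3.42%, 2.3%, 3.67%, 1.33%, 2.03% and 3.34% in the same order. The median size of the difference over the 10 genes was 1.03, 1.00 and 1.09 in the 2 dpf control, 5-HT and reserpine groups. It was 1.24, 1.25 and 1.25 in those of 4 dpf, so the median was larger in each 4 dpf group. These differences chose the genes, so nothing is read from this step.

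The difference was larger in size at 4 than at 2 dpf in the mean for 8 of the 10 genes. The share of all tested features was not computed for this count, so nothing is read from it. The step was as small as 0.08 for abhd4 and 0.17 for gpr3. For 3 of the 8 genes, cry-dash, ddb2 and lonrf4, every 4 dpf group exceeded every 2 dpf group. Of tested features, 0.427% did so and also had 1 sign in all 6 groups. All 10 genes had 1 sign, which their choice favoured, while 5.66% of tested features had replicate 1 higher throughout and 4.81% replicate 2. The 0.427% is therefore not a like background for the 3 genes. Counted among features of 1 sign, 248 did so, where 3290 had replicate 1 higher throughout and 2796 replicate 2. The cry-dash difference was 0.85 ± 0.14 at 2 dpf and 1.40 ± 0.11 at 4 dpf (SD over the 3 conditions, n = 3). That of ddb2 was 1.06 ± 0.18 and 1.69 ± 0.22, and that of lonrf4 was 1.21 ± 0.23 and 1.81 ± 0.17. By contrast fech had 1.14 ± 0.10 and 1.06 ± 0.10, and blvra 1.02 ± 0.24 and 0.96 ± 0.17. These values are parts of the contrast that chose the genes and were not tested.

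The mean levels at 4 and 2 dpf were compared with limma over all 58127 tested features with Benjamini-Hochberg adjustment. The choice of genes did not use these means, but it did use the spread between replicates, which is the error of the fit. The genes were therefore bound to have large standard errors, 0.29 to 0.85 against a median of 0.113 over all tested features, and nothing is read from how few of them passed. Averaged over control, 5-HT and reserpine, 0 of the 10 genes passed at an adjusted p under 0.05, against 24.8% of tested features, and 0 had an unadjusted p under 0.05, against 37%. The value nearest to the threshold was that of blvra, at -0.70 (SE 0.33, adjusted p = 0.160). ddb2 had 0.56 (SE 0.46), gpr3 0.51 (SE 0.38), lonrf4 0.44 (SE 0.51), fech 0.40 (SE 0.36), abhd4 0.36 (SE 0.32), cry-dash 0.22 (SE 0.38), zmat1 -0.09 (SE 0.29), wdr76 -0.29 (SE 0.43) and lonrf1 -0.35 (SE 0.85). This count of 0 did not hold when the replicate number entered the fit. The genes that then passed are given with the alternatives in the closing section. The median change of the 10 genes was 0.29 and that of all tested features -0.06.

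Within a replicate number the ages were compared by overlap of the arrays, which is another measure than a limma call. The choice of genes with a steady replicate difference may favour a low scatter here. On the 3 replicate 1 arrays of each age, 4 and 2 dpf did not overlap for 7 of the 10 genes, against 36.3% of tested features. On the replicate 2 arrays they did not overlap for 6, against 28.1%. For 4 genes, fech, blvra, gpr3 and abhd4, they parted on both, in the same direction, against 18.7%. The 3 arrays of an age differ in treatment, and these counts are descriptions.

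The size of the age difference on each replicate number varied between the genes. blvra was lower at 4 dpf by a like amount on both, with -0.73 ± 0.31 on replicate 1 and -0.67 ± 0.44 on replicate 2 arrays (SD over the 3 conditions, n = 3). gpr3 was higher on both, at 0.60 ± 0.21 and 0.43 ± 0.17, and so were fech, at 0.36 ± 0.28 and 0.44 ± 0.36, and abhd4, at 0.39 ± 0.18 and 0.32 ± 0.06. For cry-dash, ddb2 and lonrf4 the higher level at 4 dpf lay mainly on the replicate 1 arrays, with 0.49 ± 0.26, 0.87 ± 0.06 and 0.74 ± 0.08, against -0.06 ± 0.06, 0.24 ± 0.10 and 0.14 ± 0.29 on replicate 2. For lonrf1 and wdr76 the lower level lay mainly on the replicate 2 arrays, with -0.59 ± 0.22 and -0.45 ± 0.10, against -0.11 ± 0.06 and -0.12 ± 0.22 on replicate 1. zmat1 had -0.17 ± 0.06 on replicate 1 and 0.00 ± 0.09 on replicate 2.

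**Figure D3:**
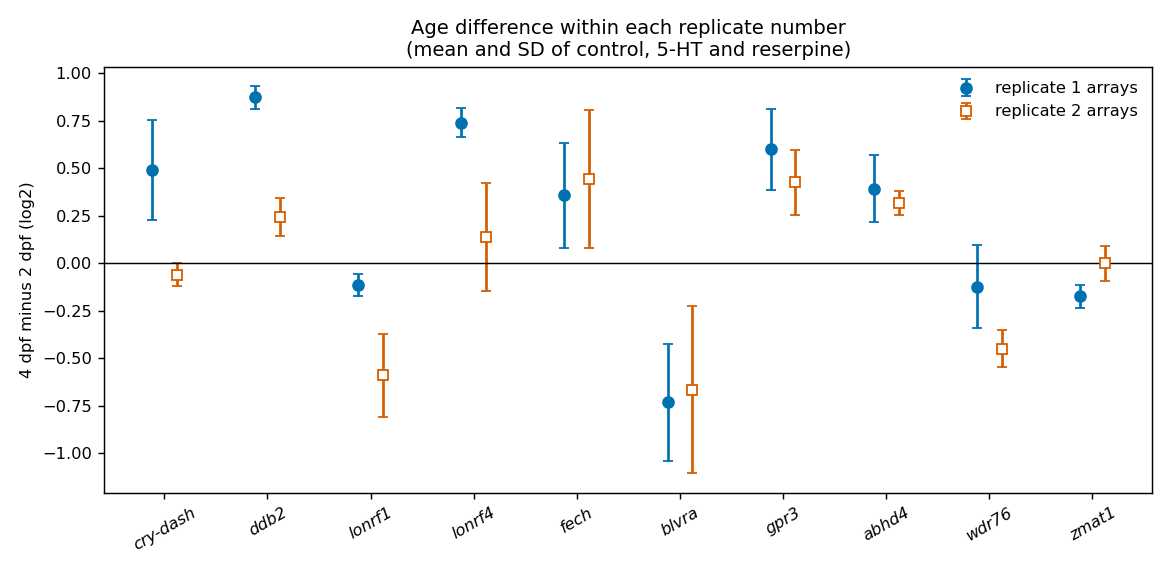
Difference between 4 and 2 dpf on the log2 scale (y axis) for each of the 10 genes (x axis), computed on replicate 1 arrays (filled circles) and on replicate 2 arrays (open squares). Points are means and bars SDs over control, 5-HT and reserpine (n = 3). blvra lies below 0 on both, at -0.73 and -0.67, while ddb2 lies at 0.87 on replicate 1 and 0.24 on replicate 2.

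In each condition alone, 0 of the 10 genes passed limma between the ages, against 11.3% of tested features in controls, 9.22% after 5-HT and 6.95% after reserpine. Of the 10, 0 had an unadjusted p under 0.05, against 27.1%, 25.7% and 22.9% of tested features in the same order. The error of the fit again held the replicate difference that chose the genes, so nothing is read from these counts. Those with the replicate number in the fit are given in the closing section. The largest changes in these comparisons were those of blvra, at -0.84 in controls (SE 0.58, adjusted p = 0.398) and -0.98 after reserpine (adjusted p = 0.350). After 5-HT blvra had -0.29 (adjusted p = 0.812), and the largest change was that of fech, at 0.75 (SE 0.63, adjusted p = 0.510).

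No change after either injection passed the threshold. Here too the error of the fit held the replicate difference that chose the genes, with standard errors of 0.51 to 1.47 against a median of 0.196, so a lack of calls does not show that the injections left these genes as they were. In limma 0 of 10 passed for 5-HT against control at 2 dpf, against 0.00688% of tested features, and 0 of 10 at 4 dpf, against 0%. For reserpine 0 of 10 passed at 2 dpf, against 0%, and 0 of 10 at 4 dpf, against 0%. In each of these 4 comparisons 0 of the 10 genes had an unadjusted p under 0.05, against 14.9%, 8.5%, 4.17% and 1.73% of tested features in the order given. The difference of each treatment effect between the ages was tested as an interaction, in which 0 of 10 passed for 5-HT, against 2.16% of tested features, and 0 of 10 for reserpine, against 0%, with 0 of 10 at an unadjusted p under 0.05 in both, against 16.6% and 2.46%.

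Set against the control array of the same replicate number and age, no gene differed by more than 0.52 in size on any treated array. Every replicate difference of the 10 genes was larger, but the genes were chosen for those differences, so nothing is read from this comparison. The 5-HT differences at 2 dpf had 1 sign on both replicate numbers for 6 of the 10 genes, against 63.2% of tested features, and at 4 dpf for 5, against 63.5%. After reserpine this held for 3 at 2 dpf, against 44.9%, and for 2 at 4 dpf, against 43.6%. The lowest mean difference after reserpine was that of fech at 2 dpf, at -0.23 (SE 0.63, adjusted p = 0.998), and that of wdr76 at 4 dpf, at -0.25 (SE 0.74, adjusted p = 1).

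The heme pair had the 5-HT values farthest apart between the ages, and is singled out here after its values were seen. fech lay below control at 2 dpf by -0.34 and -0.28 on replicates 1 and 2, a mean of -0.31 (adjusted p = 0.862), and above it at 4 dpf by 0.21 and 0.36, a mean of 0.29 (adjusted p = 0.943). The difference between the ages was 0.60 (SE 0.89, adjusted p = 0.797). blvra lay at -0.04 and -0.41 at 2 dpf and at 0.32 and 0.33 at 4 dpf, and its difference between the ages was 0.55 (SE 0.81, adjusted p = 0.795). Neither passed.

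**Figure D4:**
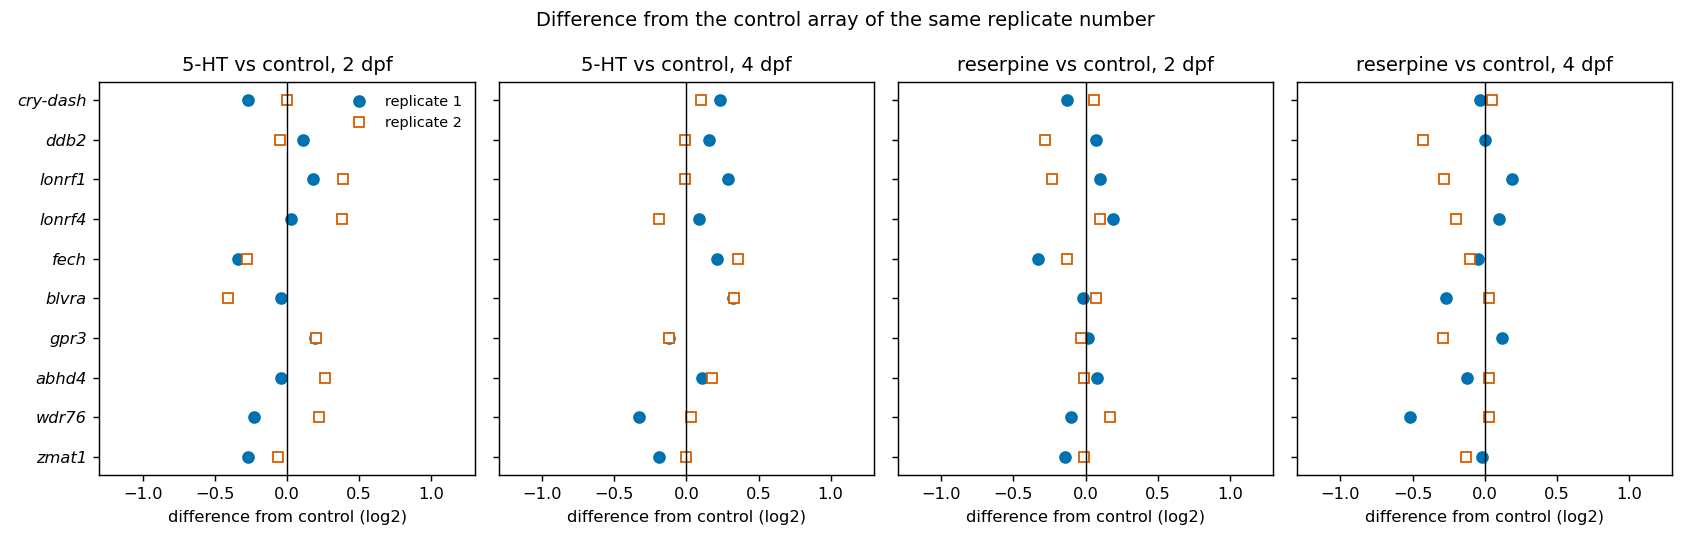
Difference of each treated array from the control array of the same age and replicate number on the log2 scale (x axis) for the 10 genes (y axis), in 1 panel per comparison, with filled circles for replicate 1 and open squares for replicate 2. All points lie within 0.52 of 0, and fech lies below 0 on both replicates at 2 dpf and above 0 on both at 4 dpf after 5-HT.

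The genes most like the 10 in their replicate difference were looked up by the cosine between the 6 differences of a gene and the pattern the 10 genes share. That pattern held 98.4% of the squared differences of the 10 genes. A large share was bound to result, since the genes were chosen for these differences, and lonrf1 with its large differences weighs most in it. Among 834 other named genes with a root mean square difference of at least 0.5, the 5 most alike were cry1a (cosine 0.999), cry3b (0.995), per3 (0.992), dhrs12 (0.990) and cry5 (0.988). The 10 genes were chosen for tracking light-regulated clock genes in this difference, so clock genes near the top follow from that choice. The cosine was not centred, and the pattern was nearly even, with weights of 0.33 to 0.465 over the groups. Any steady difference of 1 sign thus scores high. cry1a encodes a clock repressor that light induces in zebrafish, and its difference was 2.99 on average, from 2.40 to 3.49. per3 is a further clock repressor, with 0.94, dhrs12 encodes a dehydrogenase, with 0.79, and cry5 encodes the photolyase of 6-4 photoproducts, with 1.60.

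The 5 genes with the most opposite pattern had the sign of zmat1, though likeness to zmat1 itself was not computed. They were srsf10a, a splicing factor gene (cosine -0.989), pus7l, a pseudouridine synthase gene (-0.977), and mhc1ula, of the class I antigen presentation family (-0.969). Next came gusb, which encodes the lysosomal enzyme beta-glucuronidase (-0.966), and chordc1a, which encodes a partner of the chaperone Hsp90 (-0.964). The mean differences of the 5 were -0.53, -0.56, -0.88, -0.81 and -0.63, so mhc1ula matched zmat1 in size. The cosine runs over 6 groups that share the 2 replicate numbers, and is a description.

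Other genes of ultraviolet damage repair were read from a list of 29, of which 25 were measured. Replicate 1 was higher in all 6 groups for 6 of the 25, against 5.66% of tested features, and replicate 2 for 0, against 4.81%. The list was chosen with earlier results of these data known, so nothing is read from these counts. The median of their mean differences was 0.07, against -0.01 over all tested features. The 3 with the largest differences were cry5 (mean 1.60), ercc6, of transcription-coupled repair (0.80), and xpc, a damage sensor (0.67). Named beside these 3, neil1 had 0.61 and the photolyase gene cpdp 0.49. Between the ages, 1 of the 25 rose in limma averaged over the conditions and 7 fell, against 11.3% and 13.5% of tested features. dtl, which encodes a substrate adaptor of the CUL4 and DDB1 ubiquitin ligase, fell by 0.83 (SE 0.09, adjusted p = 1.84e-04), gtf2h5, a subunit of the repair helicase complex TFIIH, fell by 0.55 (adjusted p = 0.00204), and rad23ab, an XPC partner, rose by 0.59 (adjusted p = 0.00118).

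Of 22 listed genes of heme synthesis and breakdown, 19 were measured, with a median mean difference of 0.01. Replicate 1 was higher in all 6 groups for 2 of the 19, against 5.66% of tested features, and replicate 2 for 0, against 4.81%. Nothing is read from so small a count. The 2 were the heme oxygenase gene hmox2a (mean 0.45, from 0.07 to 0.87) and alas1, which encodes the first enzyme of heme synthesis outside blood cells (0.39, from 0.13 to 0.58). No gene of this list reached the mean difference of fech or blvra. Between the ages 1 of the 19 rose in limma and 2 fell, against 11.3% and 13.5% of tested features, so nothing is read from these counts. alas1 rose by 1.02 (SE 0.15, adjusted p = 0.00137), while alas2, its counterpart in red blood cells and also among the red blood cell markers below, fell by 1.36 (SE 0.09, adjusted p = 1.06e-05) and urod, also of heme synthesis, by 0.40 (adjusted p = 0.0409). The urod call was lost with any 1 of 8 arrays left out (adjusted p = 0.0641 to 0.114), all but 2 dpf control replicate 2, 2 dpf 5-HT replicate 2, 4 dpf control replicate 1 and 4 dpf reserpine replicate 1. It was also lost with arrays centred on their medians (0.0547). Without 2 dpf control replicate 2, 5 genes of this list passed in place of 3.

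Of 13 listed paralogs, 11 were measured, and their median mean difference was 0.03. Besides cry5, none reached the difference of any of the 10 genes: gpr12 and gpr6, the receptors most like gpr3, had 0.20 and -0.12. Between the ages 1 of the 11 rose, abhd5a (0.48, SE 0.08, adjusted p = 0.00216), and 1 fell, zmat2 (-0.36, adjusted p = 0.0271). The shares of all tested features were 11.3% and 13.5%, so nothing is read from these counts. The zmat2 call was lost with any 1 of 7 arrays left out (adjusted p = 0.0524 to 0.0770), which were 2 dpf control replicate 2, 2 dpf 5-HT and reserpine replicate 1, both 4 dpf controls, 4 dpf 5-HT replicate 2 and 4 dpf reserpine replicate 1. The count was 4 without 2 dpf control replicate 1.

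The clock and light-regulated list held 35 measured genes of 38, with a median mean difference of 0.28. Replicate 1 was higher in all 6 groups for 16, against 5.66% of tested features, and replicate 2 for 0, against 4.81%. The 10 genes were chosen for tracking light-regulated clock genes in this difference, so a likeness between them and this list follows from that choice. Its largest differences were those of cry1a, per2, a repressor that light induces (2.52, from 1.54 to 3.29), and cry3b (1.84, from 1.38 to 2.28). Of the 10 genes, lonrf1 lay in that range and the other genes below all 3 means. Between the ages 15 of the 35 rose and 1 fell, against 11.3% and 13.5% of tested features. nr1d1 rose by 3.65 (SE 0.18, adjusted p = 1.58e-06), dbpb by 2.62 (adjusted p = 3.98e-07) and dbpa by 1.59 (adjusted p = 8.25e-06). per2 had 0.31 (SE 0.85, adjusted p = 0.826). Its large replicate difference is part of the error of this fit, in which the median SE was 0.113. The lack of a call for per2 therefore does not show that it was steady between the ages. Since the labels do not give the hour of collection, age and hour cannot be told apart for clock genes. The mean replicate differences of nr1d1, dbpb and dbpa were 0.38, -0.06 and 0.02.

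**Figure D5:**
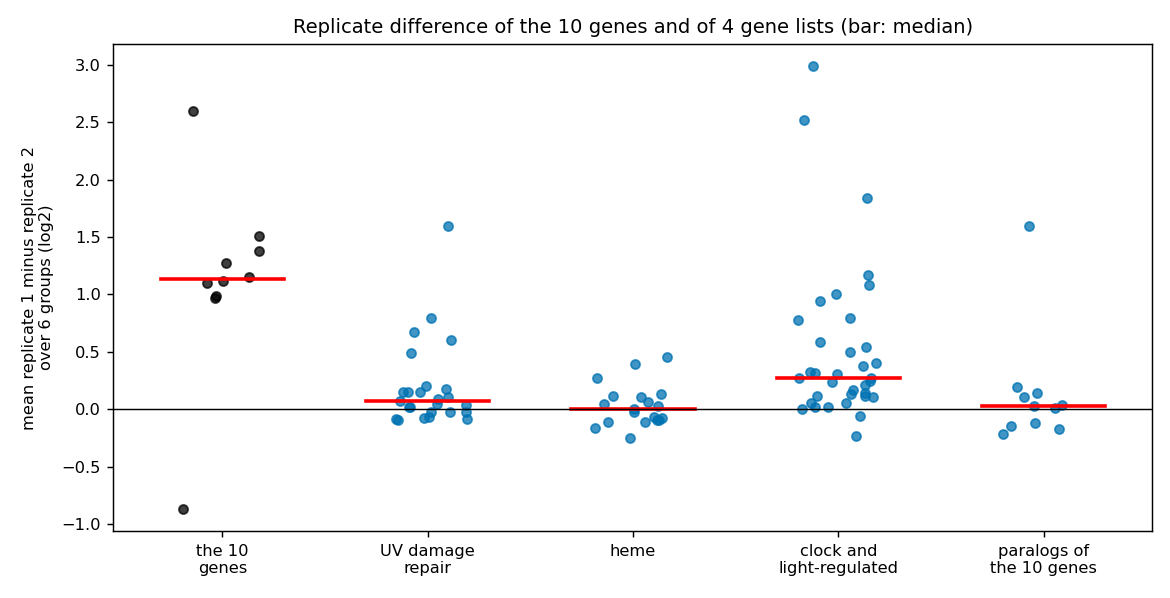
Mean of replicate 1 minus replicate 2 over the 6 groups on the log2 scale (y axis) for the 10 genes (black) and for the genes of 4 lists (blue), with 1 point per gene and a red bar at the median. The medians of the repair, heme, clock and paralog lists are 0.07, 0.01, 0.28 and 0.03, and single genes such as cry5 in the repair list lie among the 10 genes.

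Markers of tissues were read beside these differences. The mean of 6 proliferating cell markers was higher on replicate 1 in all 6 groups, by 0.06 to 0.33, with levels of 9.91 to 10.37 on replicate 1 and 9.60 to 10.17 on replicate 2 arrays. The mean of 8 red blood cell markers was lower on replicate 1 in all 6 groups, from -0.48 to -0.00, with 8.75 to 9.34 against 9.08 to 9.36. That of 7 liver markers was also lower in all 6, from -1.40 in 2 dpf controls to -0.04, with 8.97 to 10.62 against 10.35 to 10.76. Single markers were less steady than these means. Of the proliferating cell markers, 1 of 6 was higher on replicate 1 in all 6 groups, and pcna had a mean difference of -0.04. Of the red blood cell markers 0 of 8, and of the liver markers 1 of 7, were lower on replicate 1 in all 6 groups. The mean of 4 exocrine pancreas markers was lower on replicate 1 in the 3 groups of 2 dpf, by -1.13 in controls, -0.76 after 5-HT and -0.78 after reserpine, and higher in those of 4 dpf, by 0.06, 0.10 and 0.43. The mean of 6 photoreceptor markers was likewise lower at 2 dpf, by -0.18, -0.04 and -0.68, and higher at 4 dpf, by 0.04, 0.17 and 0.10. These markers did not move together at 2 dpf. Their mean differences were -1.36 for gnat2, -0.46 for gnat1, -0.24 for rbp3, -0.02 for crx, 0.09 for exorh and 0.20 for aanat2. The part of these tissues in the differences of the 10 genes was not tested. The means of 5 skeletal muscle, 4 neuron and 4 epidermis markers had no common sign within either age, and their differences ranged from -0.11 to 0.11, -0.36 to 0.10 and -0.15 to 0.32.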

How the data were processed

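The authors deposited log2 expression values for 73244 features on 12 one-colour Affymetrix zebrafish gene arrays, and these were used as deposited. That the values are log2 was read from their range, while the sources used here do not name the software or normalization. All 12 columns were used. Probe sets were named from the platform annotation, updated through a RefSeq gene table (GRCz12tu) used for names only: 20491 carried 1 symbol, of which 20013 matched, 842 several and 51911 none.

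Features entered the fit when 2 or more of 12 arrays reached that array's 25th percentile (58127 features, 18385 genes, all 10 genes among them). limma 3.58.1 in R 4.3.3 (lmFit, eBayes, two-sided) was fitted to 6 group means, with 6 residual degrees of freedom. The fit was also run on simulated data with known changes. Their errors were independent and held no shared replicate difference, so that run does not cover such a difference. A gene was called changed at a Benjamini-Hochberg adjusted p under 0.05 within a comparison. p-values rest on the spread between the biological replicates named in the labels. The fit without a block treats this spread as independent between groups, although part of it was shared by replicate number. Replicate differences, cosines and list medians are descriptions. The comparisons with control at one age share the control arrays.

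The 10 genes and all gene lists were chosen with earlier results of these data known. The rule for naming took the 10 genes and, from each list, the 3 with the largest replicate differences and the 3 with the smallest p between the ages, of which a selection is given. List genes were matched through current symbols and synonyms: cry1a stands for the listed cry1aa, and lonrf1l is a synonym of lonrf1. Alternatives were no filter, quantile normalization, centring of medians, means of probe sets, a replicate block, the groups compared alone, and each array left out in turn. Those for the lists were added after seeing the data.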

Additional observations from a re-analysis of the deposited data

How the results depend on the processing

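Fitted without a block, 0 of the 10 genes were called in the 10 comparisons between ages or treatments without the filter, after quantile normalization or centring, with means of probe sets, with the groups compared alone (the mean age change uses all groups in any case) and with any 1 array left out (0 to 0). With replicate number as a block (replicate block), 6 genes passed for the mean age change, where blvra (adjusted p = 7.57e-04) was lower and gpr3 (0.003), fech (0.00433), abhd4 (0.0109), ddb2 (0.0175) and lonrf4 (0.0400) were higher. The choice of genes with a steady replicate difference favours a low error in this fit. For fech the SE was 0.072, against 0.36 without the block. Nothing is therefore read from the counts or p-values of the 10 genes with the block. Of all 58127 tested features, 16653 passed for the mean age change with the block. The count of the 10 genes was 2 in controls, 1 after 5-HT and 2 after reserpine, against 8569, 7172 and 5451 tested features. It was 0 in the 4 treatment comparisons and both interactions. Of tested features, 1 passed there for 5-HT at 2 dpf, 1614 for the 5-HT interaction and 0 in the others. fech then had an unadjusted p of 0.0354 and 0.0489 for 5-HT at 2 and 4 dpf (adjusted p = 0.246 and 0.469) and, for the difference between the ages, fech 0.00874 and blvra 0.0323 (adjusted p = 0.113 and 0.210). Replicate differences of 15 pairs of groups correlated at -0.066 to 0.329 over tested features, over 0.1 in 12. Groups thus shared part of their replicate difference by number, and the fit without a block counts that part as error. The labels do not say what is shared, and 3 pairs were under 0.1, so neither fit is preferred here on the design. Counts of genes past 2-fold between replicates stayed within 1.5 times under quantile normalization, centring and means of probe sets, with the widest step in 2 dpf controls, from 7 to 5 after quantile normalization.

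Leaving out 1 array unbalances the replicate numbers. The mean age change then ranged from -0.037 to 0.47 for cry-dash, -0.86 to 0.16 for lonrf1, -0.58 to 0.0033 for wdr76 and -0.27 to 0.10 for zmat1, and kept its sign for the other 6 genes. The 5-HT difference ranged from -0.93 to 0.31 at 2 dpf and -0.26 to 0.83 at 4 dpf for fech, and from -0.88 to 0.43 and -0.21 to 0.86 for blvra. Their differences between ages ranged from -0.02 to 1.21 and -0.10 to 1.20. The reserpine values ranged from -0.85 to 0.39 for fech and -1.12 to 0.63 for wdr76. The pairs of arrays per group limit all comparisons.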
